A study of Mus musculus with 6 samples.

Results

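The mitochondrial ribosomal proteins are the protein components of the machine that translates the few mRNAs of the mitochondrial genome. All protein-coding genes whose GENCODE M21 symbol starts with Mrpl or Mrps were taken as members, which gave 78 genes, of 21730 genes with a read and 8684 genes with enough reads for a test. All 78 members had reads, 178 to 6644 each over all libraries, and all 78 passed the filter on low counts. By the assignment of their products, 51 encode proteins of the large subunit, 26 encode proteins of the small subunit, and Mrps36 is named for the ribosome although its product is assigned to the oxoglutarate dehydrogenase complex.

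The mitochondrial ribosome is built inside the organelle from mitochondrially encoded rRNAs and from proteins that are encoded in the nucleus, made in the cytosol and imported. Many of these proteins have a counterpart in the bacterial ribosome, and others have none. Its mRNAs encode membrane subunits of the respiratory chain and of ATP synthase, and brown fat is rich in mitochondria that burn fuel through the respiratory chain to release heat by way of Ucp1.

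The tissue was the interscapular brown fat of male wild-type C57BL/6N mice aged 20 weeks. Cold mice 4, 11 and 15 spent 24 h at 4 °C, one animal to a cage, and ctrl mice 2, 9 and 14 were kept at 22 to 24 °C. The labels do not tell apart how the ctrl mice were caged, so cold and single housing cannot be told apart. Poly(A) RNA of each mouse gave 1 nanopore direct cDNA library, a long-read method with no PCR step, that was read on 2 flow cells.

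The libraries held 1657985 to 2082203 counted reads in cold mice and 1829442 to 2238056 in ctrl mice, so that 3 reads stood for 1.34 to 1.81 CPM, the count of a gene scaled to the same library total in every library. CPM values below are further scaled by TMM factors, which set the libraries to a common level of most genes and ran from 1.006 to 1.051 in cold mice and from 0.956 to 0.998 in ctrl mice. Brown adipocyte markers summed to 22400 to 23358 CPM in cold mice and 18449 to 20523 CPM in ctrl mice. Ucp1 alone had 13665 to 13889 CPM in cold mice and 9700 to 11228 CPM in ctrl mice. Skeletal muscle RNA differed between libraries and moved with the group: its 14 markers summed to 307, 1527 and 3876 CPM in cold mice and to 102, 432 and 693 CPM in ctrl mice, with overlap, and 0 of the 14 passed the edgeR test although all 14 fold changes were positive (median log2 fold change 2.21). Bulk RNA cannot tell fewer cells of a type from less RNA per cell.

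RefSeq promoter windows on GRCm38.p6, from 250 bases before to 50 bases after a start, were matched by symbol to 69 of the 78 members. The 9 members without one were Mrpl4, Mrpl13, Mrpl15, Mrpl19, Mrpl38, Mrpl54, Mrps28, Mrps34 and Mrps35. Factors known in mammals for promoters of nuclear genes of mitochondria are NRF1, the ETS protein GABP (also called NRF2) and YY1. Windows were searched on both strands for the ETS core CCGGAAG, the YY1 core AAGATGGC and the NRF1 core with any base at its sixth place. At least 1 of these cores stood in the windows of 62.3% of the 69 members and of 37% of the 6761 tested genes with a window. The ETS core stood in 37.7% of members and 23% of tested genes, the YY1 core in 17.4% and 6.17%, and the NRF1 core in 18.8% and 13.3%. The CCAAT box was no more frequent in members (39.1% against 42.5%), TATAAA stood in 7.25% of members and 8.64% of tested genes, and the nuclear receptor core TCAAGGTCA of the ERR family stood in 0 of 69 members and 0.266% of tested genes. These are matches of letters and not sites shown to be bound.

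Of the 18 members that passed the test described below, 17 had a window and 7 of these held an ETS or YY1 core. The NRF1 core stood in 0 of these 17, beside 13 of the 69 members (18.8%) and 13.3% of tested genes with a window. Over all 69 members the ETS core stood in 37.7% and the YY1 core in 17.4%. Whether the called members differ from these shares was not tested. The sites of these 7 members are shown with up to 10 bases on each side, on the strand of the gene and with the core in capitals, because the same letters stand in the windows of members that moved in opposite directions. They were chosen after the values were seen. First come the 3 members that were lower in cold mice, then the 4 that were higher.
Mrpl48, ETS core, chr7:100583148-100583174, minus strand: gttttaaaaaCTTCCGGaaccaagatg
Mrps7, YY1 core, chr11:115604148-115604175, plus strand: gacagcggccAAGATGGCtgcccccgcg
Mrps24, YY1 core, chr11:5707652-5707675, minus strand: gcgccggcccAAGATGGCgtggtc
Mrpl27, ETS core, chr11:94653726-94653752, plus strand: tccgcaagacCCGGAAGtagatctatc
Mrps18b, ETS core, chr17:35916391-35916407, minus strand: cgcagtcgctCTTCCGG
Mrps18a, ETS core, chr17:46110968-46110994, plus strand: cacccctgctCCGGAAGcggaagtgca
Mrps18a, YY1 core, chr17:46111005-46111032, plus strand: ggtgcgttccAAGATGGCggccctcagg
Mrpl35, YY1 core, chr6:71823744-71823771, minus strand: ggcaggctgcAAGATGGCggcttccatc
The YY1 core of all 4 members shown with it lay past the RefSeq start of the window, and its letters include an ATG. The ETS core of Mrps18b also lay past its RefSeq start, so 5 of the 8 sites shown did. On the minus strand, the GENCODE genes Mrpl48, Mrps24 and Mrpl35 begin at 100608301, 5715680 and 71826969. Their sites lie inside these genes, so their windows may not stand at the start of the transcripts counted here. Among called members with a window, the ETS core stood in 3 of 8 that were higher and 1 of 9 that were lower, and the YY1 core in 2 of 8 and 2 of 9.

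The 250 bases before the start are shown for the 2 members with the largest called change in each direction and for Mrpl12, with matches to any searched core in capitals.
Mrps15, lower, chr4:126046678-126046927, plus strand: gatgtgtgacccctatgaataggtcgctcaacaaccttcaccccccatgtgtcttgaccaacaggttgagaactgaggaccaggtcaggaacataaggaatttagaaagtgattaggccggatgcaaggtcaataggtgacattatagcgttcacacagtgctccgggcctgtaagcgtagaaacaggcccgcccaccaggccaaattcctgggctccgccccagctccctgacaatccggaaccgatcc
Mrpl50, lower, chr4:49521084-49521333, minus strand: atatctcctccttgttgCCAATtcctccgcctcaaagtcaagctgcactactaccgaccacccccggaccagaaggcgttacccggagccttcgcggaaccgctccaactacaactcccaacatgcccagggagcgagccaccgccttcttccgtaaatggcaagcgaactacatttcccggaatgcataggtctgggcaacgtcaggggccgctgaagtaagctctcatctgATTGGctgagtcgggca
Mrpl47, higher, chr3:32736756-32737005, minus strand: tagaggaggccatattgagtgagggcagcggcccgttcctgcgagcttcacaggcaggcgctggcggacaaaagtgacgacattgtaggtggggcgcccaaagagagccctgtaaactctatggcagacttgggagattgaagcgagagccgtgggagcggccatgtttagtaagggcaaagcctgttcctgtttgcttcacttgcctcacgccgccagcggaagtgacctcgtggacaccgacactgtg
Mrpl46, higher, chr7:78783090-78783339, minus strand: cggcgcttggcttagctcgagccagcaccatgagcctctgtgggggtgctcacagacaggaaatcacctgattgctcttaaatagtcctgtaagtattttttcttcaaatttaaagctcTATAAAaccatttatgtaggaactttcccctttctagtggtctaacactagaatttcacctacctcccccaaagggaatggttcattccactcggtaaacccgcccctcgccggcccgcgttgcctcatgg
Mrpl12, not called, chr11:120484387-120484636, plus strand: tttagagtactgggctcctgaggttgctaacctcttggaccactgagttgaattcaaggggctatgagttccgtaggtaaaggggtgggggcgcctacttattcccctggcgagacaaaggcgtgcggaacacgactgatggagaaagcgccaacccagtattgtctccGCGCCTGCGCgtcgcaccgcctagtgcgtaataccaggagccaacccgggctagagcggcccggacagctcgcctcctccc
The stretch of Mrpl12 carried an NRF1 core on the opposite strand, that of Mrpl50 carried the CCAAT box once on each strand, and that of Mrpl46 carried TATAAA. No searched core stood in the stretches of Mrps15 and Mrpl47, and the RefSeq start of Mrpl47 lay 392 nt from the GENCODE start of its main transcript.

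In brown fat the members were moderately abundant mRNAs. Their median mean level was 90.3 CPM, against 19.2 CPM for all tested genes, and 77 of the 78 lay above the median of tested genes. By mean CPM the members ran from 15.3 (Mrpl23) to 572 (Mrps36). A long read can stand for a whole transcript, so CPM itself can be compared between genes, and division by length ranks long transcripts lower. Mrpl19, with 5000 nt, had 40.1 CPM and ranked 73 by CPM but 78 per kb. Per kilobase of transcript the members spanned 105-fold. At the top stood Mrps36 with 843 CPM per kb, Mrpl42 of the large subunit with 622 and Mrpl34, a small protein with a bacterial counterpart, with 580. Mrps21 of the small subunit stood level with Mrpl34 at 580 CPM per kb. At the bottom stood Mrpl19 with 8.02 CPM per kb, Mrpl1, which builds a mobile stalk of the large subunit, with 11.3, and Mrps30, a large subunit protein in spite of its symbol, with 12.2. The members lay on 17 chromosomes, with 11 on chromosome 11 and 8 on chromosome 17.

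**Figure D1:**
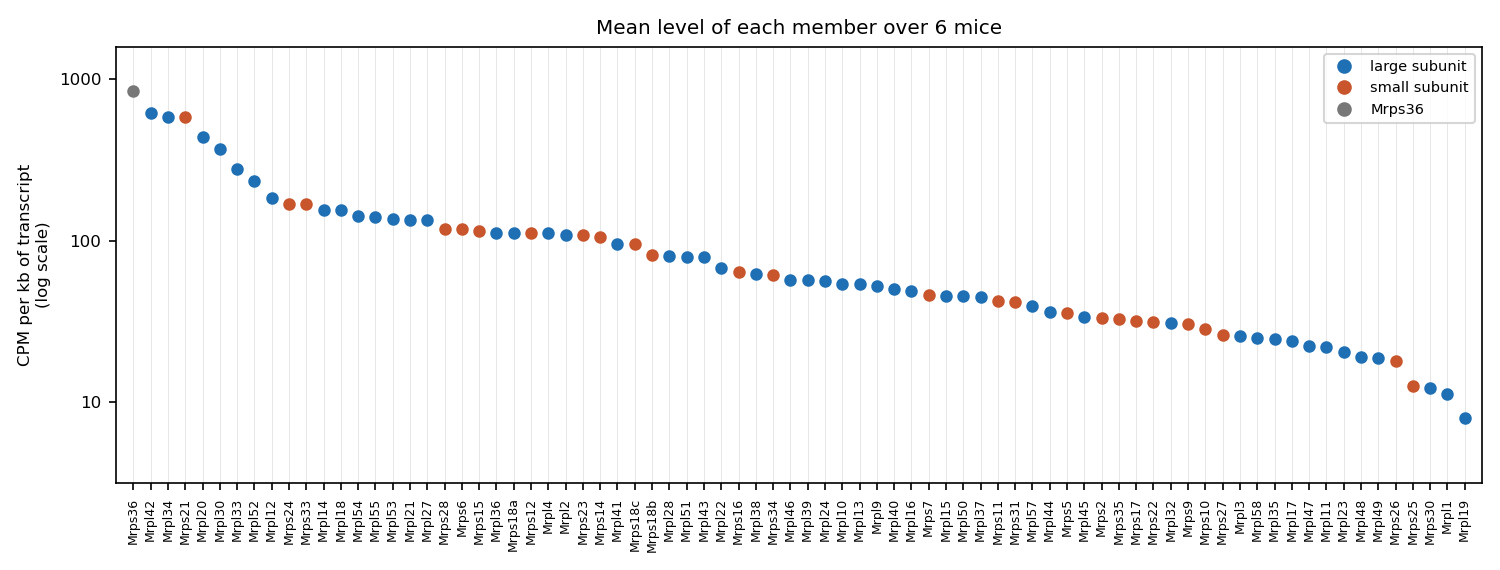
Mean level of each of the 78 members over the 6 mice in CPM per kilobase of transcript, on a log axis, ordered from high to low and coloured by subunit. Mrps36 stands at the top with 843 and Mrpl19 at the bottom with 8.02, and both subunits are spread over the whole range.

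In the cold, the members did not move as a block. Of 78 members, 9 were higher and 9 were lower in cold mice at an adjusted p under 0.05 by edgeR's quasi-likelihood test, and 60 did not pass. That is 23.1% of members called, beside 20.0% of all tested genes (869 genes higher and 870 lower) and 26.2% of the 4884 tested genes within the members' range of mean CPM, so the share called was near the background. The median log2 fold change was -0.06 for members and 0.00 for all tested genes. The members' changes were small: they ran from -0.85 to 0.50 on the log2 scale, and 75 of the 78 lay within 0.5 of 0. By sign alone, 32 members were above and 46 below 0, beside 4353 above and 4331 below among all tested genes. Within the members' range of mean CPM, 2537 tested genes were above and 2347 below. These signs are those of the TMM-scaled fit.

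The CPM of cold and ctrl mice did not overlap in 39 members (50%), with cold mice above in 13 and below in 26, beside 35.1% of tested genes (17.3% above and 17.8% below) and 41.9% of the tested genes within the members' range of mean CPM. That split depended on scaling: with CPM taken straight from library totals it was 19 above and 19 below (24.4% each), beside 21.5% above and 14.2% below among all tested genes and 26.9% above and 15.6% below within the members' range. All 18 called members had groups that did not overlap and the same sign on both flow cells, and 63 of the 78 members had the same sign on both. The 18 were picked by a test on these same reads, so neither property is separate support for them. The share of same signs over all tested genes was not counted.

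**Figure D2:**
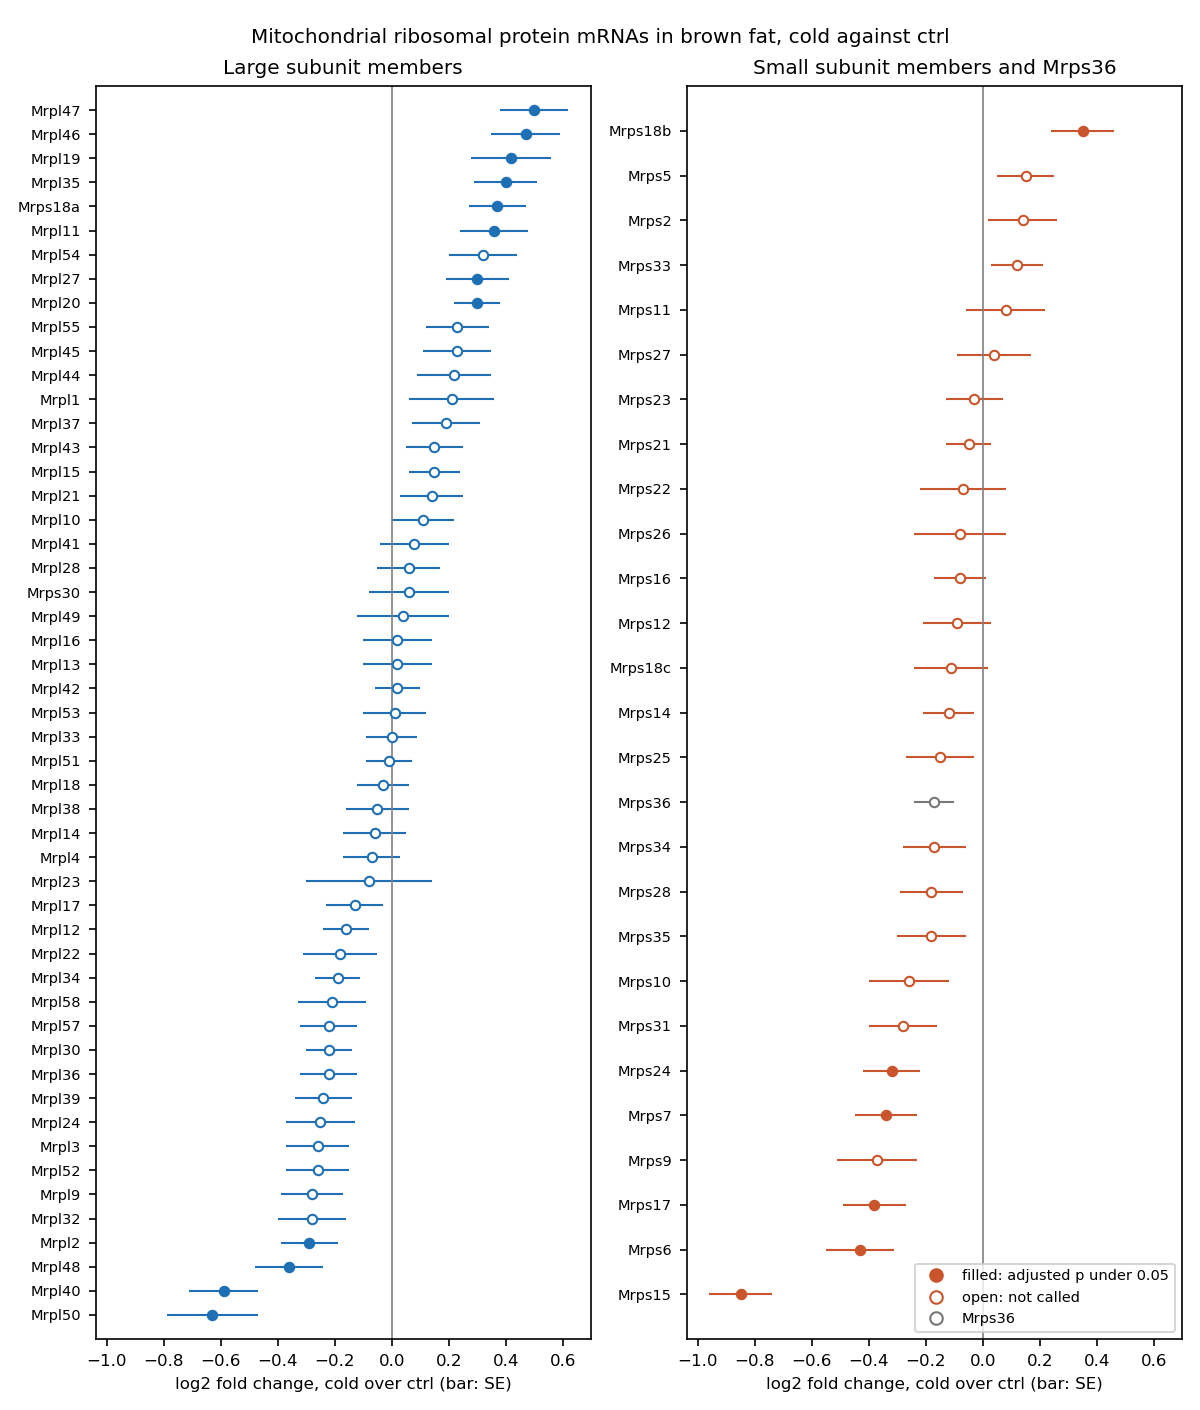
Log2 fold change of each member, cold over ctrl, with its SE as a bar, for the large subunit on the left and for the small subunit with Mrps36 on the right. Filled points passed the test: 8 higher and 4 lower in the large subunit, 1 higher and 5 lower in the small subunit.

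The called members were counted by subunit. Among 51 large subunit members, 8 were higher and 4 lower (median log2 fold change 0.01), and among 26 small subunit members, 1 was higher and 5 were lower (median -0.12). That is 15.7% higher and 7.84% lower in the large subunit and 3.85% higher and 19.2% lower in the small subunit, beside 10% of all tested genes in each direction. Within the small subunit, all 5 lower members belonged to the 16 with a bacterial counterpart, of which 0 were higher, while the 10 mitochondria-specific proteins held 1 higher and 0 lower. Within the large subunit, the 30 proteins of bacterial type held 6 higher and 1 lower, and the 21 mitochondria-specific ones held 2 higher and 3 lower. On flow cell 1 alone the large subunit had 5 members higher and 5 lower and the small subunit 0 higher and 4 lower, and on flow cell 2 alone these counts were 3 and 3, and 0 and 2. Under DESeq2 the large subunit had 1 member higher and 2 lower and the small subunit 0 higher and 1 lower, and with the muscle covariate these counts were 4 and 1, and 0 and 2. Leaving out 1 mouse left 4 (without cold mouse 4 or ctrl mouse 9) or 5 (without ctrl mouse 14) large subunit members higher. The count was 6 without cold mouse 15 or ctrl mouse 2 and 7 without cold mouse 11. The lower ones numbered 1 (without ctrl mouse 2) or 2 (without cold mouse 4, ctrl mouse 9 or ctrl mouse 14). They numbered 4 without cold mouse 11 and 5 without cold mouse 15. The lower small subunit members numbered 2 (without ctrl mouse 14) or 3 (without cold mouse 11 or cold mouse 15). They numbered 4 without cold mouse 4, ctrl mouse 2 or ctrl mouse 9. The single higher small subunit member was lost without cold mouse 4, cold mouse 15, ctrl mouse 2 or ctrl mouse 9. Whether these splits differ beyond the background was not tested, and the median of the large subunit changed sign between alternatives, from -0.02 to 0.04.

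The reads were also summed over each subunit. The ratio of large to small subunit reads, which no scaling can move, was 2.211, 2.310 and 2.321 in cold mice 4, 11 and 15, and 2.119, 2.086 and 2.106 in ctrl mice 2, 9 and 14. All 3 cold mice lay above all 3 ctrl mice. On flow cell 1 the ratio was 2.191, 2.313 and 2.256 in cold mice and 2.033, 2.113 and 2.058 in ctrl mice, again without overlap. On flow cell 2 it was 2.250, 2.304 and 2.435 in cold mice and 2.291, 2.036 and 2.205 in ctrl mice, and the groups overlapped. Without Mrps15 it was 2.284, 2.375 and 2.391 in cold mice and 2.220, 2.200 and 2.217 in ctrl mice. Over only the subunit members that were not called, it was 2.237, 2.305 and 2.330 in cold mice and 2.248, 2.267 and 2.293 in ctrl mice. There the groups overlapped, although the called members were picked by these same values.

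The total over all members was 9107, 8934 and 8878 CPM in cold mice and 9391, 9246 and 9381 CPM in ctrl mice. Taken straight from library totals, it was 9052.9, 8996.7 and 9196.1 CPM in cold mice and 8871.6, 9108.1 and 9008.7 CPM in ctrl mice, and the groups overlapped. The small subunit summed to 2673, 2532 and 2511 CPM in cold mice and 2806, 2809 and 2826 CPM in ctrl mice, lower in all 3 cold mice, but overlapping when unscaled (2657, 2550 and 2601 against 2651, 2767 and 2714). The large subunit summed to 5909, 5849 and 5828 CPM in cold mice and 5946, 5862 and 5951 CPM in ctrl mice, overlapping here and higher in every cold mouse when unscaled (5874, 5890 and 6037 against 5617, 5774 and 5715). Reads of mitochondrially encoded genes, which enter each library total, made up 27.6 to 29.0% of reads in cold mice and 29.7 to 32.5% in ctrl mice.

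**Figure D3:**
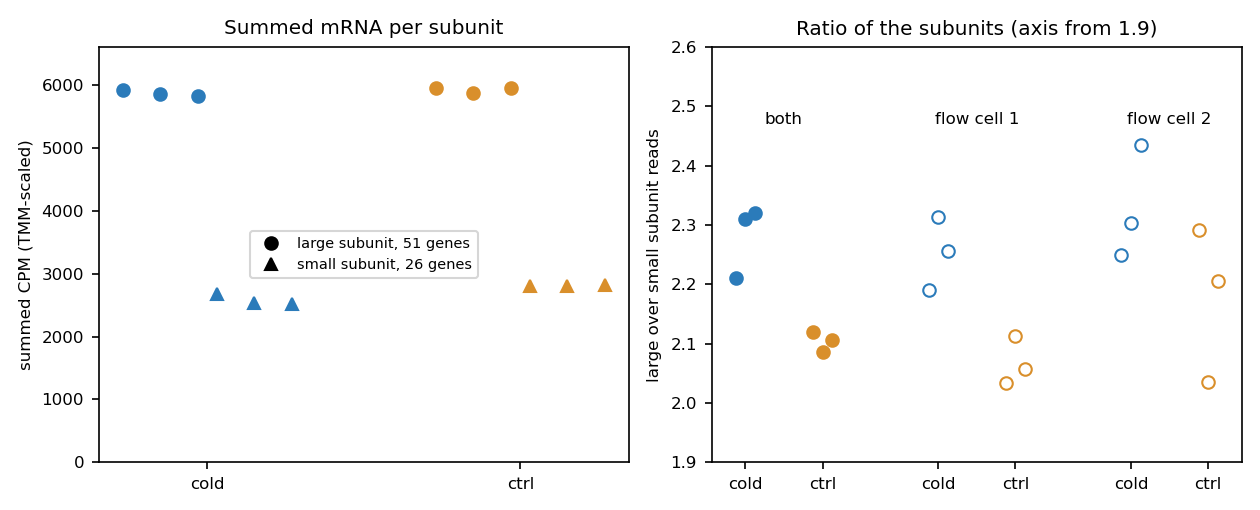
Left, summed CPM of the 51 large and 26 small subunit members in each mouse; right, the ratio of large to small subunit reads in each mouse over both flow cells and on each flow cell, on an axis that does not start at 0. Over both flow cells the 3 cold mice lie at 2.211 to 2.321 and the 3 ctrl mice at 2.086 to 2.119.

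The largest change of all members was a fall of Mrps15, whose bacterial counterpart binds the small subunit rRNA early in assembly (chr4:126046925-126055532, GRCm38). It had 86.5, 70.1 and 73.4 CPM in cold mice 4, 11 and 15, and 128, 145 and 141 CPM in ctrl mice 2, 9 and 14. Every cold mouse lay far below every ctrl mouse, and the means were 76.7 ± 8.66 and 138 ± 9.02 CPM (SD, n = 3 each). That is 1.80-fold lower (log2 fold change -0.85 ± 0.11 SE, adjusted p = 6.37e-07). The change was -0.84 on flow cell 1 and -0.87 on flow cell 2, and in 14 alternatives the adjusted p was at most 0.000108. Its transcript Mrps15-201 held 98.5% of its reads.

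The other 4 called small subunit members that fell also have bacterial counterparts. Mrps6, whose counterpart binds the rRNA together with S18, had 91.3, 91.7 and 75.7 CPM in cold mice and 102, 138 and 108 CPM in ctrl mice (chr16:92058270-92112227). Cold mice were lower throughout, 1.34-fold in the fit (log2 fold change -0.43 ± 0.12 SE, adjusted p = 0.00942). Mrps17, whose counterpart is an early rRNA binder, had 86.5, 77.1 and 71.6 CPM in cold mice and 113, 89.3 and 105 CPM in ctrl mice (chr5:129715497-129722556). The gap between the groups was narrow, with cold mouse 4 just under ctrl mouse 9, and the fit gave a 1.30-fold fall (log2 fold change -0.38 ± 0.11 SE, adjusted p = 0.0178). Mrps7, whose counterpart organises the head of the subunit, had 77.3, 82.7 and 79.2 CPM in cold mice and 96.6, 100 and 106 CPM in ctrl mice (chr11:115603925-115608036). Both groups were tight and well apart, and Mrps7 was 1.27-fold lower (log2 fold change -0.34 ± 0.11 SE, adjusted p = 0.0213). Mrps24, the counterpart of bacterial S3 at the entry of the mRNA channel, had 157, 130 and 141 CPM in cold mice and 176, 177 and 183 CPM in ctrl mice (chr11:5703983-5715680). It was lower in 3 of 3 cold mice, 1.25-fold (log2 fold change -0.32 ± 0.10 SE, adjusted p = 0.0156). Several of these calls were lost when 1 mouse was left out, which also leaves fewer animals for the test. Mrps6 did not pass without cold mouse 15 (adjusted p = 0.0528) or ctrl mouse 9 (0.0987), Mrps7 without cold mouse 4 (0.075) or ctrl mouse 14 (0.0873), and Mrps24 without cold mouse 11 (0.0983) or ctrl mouse 14 (0.0671). Mrps17 did not pass without cold mouse 11 (0.0558), cold mouse 15 (0.0796), ctrl mouse 2 (0.108) or ctrl mouse 14 (0.0618).

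The large subunit members that fell were 3 mitochondria-specific proteins and Mrpl2. Mrpl50 had 80.2, 90.2 and 54.2 CPM in cold mice and 121, 130 and 99.6 CPM in ctrl mice (chr4:49512596-49521093). Cold mouse 15 was the lowest of its group and ctrl mouse 14 of the other, and the groups stayed apart, 1.55-fold lower in cold mice (log2 fold change -0.63 ± 0.16 SE, adjusted p = 0.0161). Mrpl40, a protein of the central protuberance on top of the subunit, had 50.2, 53.1 and 43.7 CPM in cold mice and 71.7, 72 and 78.2 CPM in ctrl mice (chr16:18872018-18876862). The groups were widely separated, 1.51-fold (log2 fold change -0.59 ± 0.12 SE, adjusted p = 0.00049), and the call held in all 14 alternatives, with an adjusted p of at most 0.0259. Mrpl48, of the same protuberance, had 67.2, 53.1 and 67 CPM in cold mice and 87.9, 75.5 and 76.3 CPM in ctrl mice (chr7:100545751-100608301). It was 1.28-fold lower, with cold mouse 11 lowest and ctrl mouse 2 highest (log2 fold change -0.36 ± 0.12 SE, adjusted p = 0.0368). Mrpl2, whose bacterial counterpart lies near the peptidyl transferase centre, had 90.3, 99.7 and 108 CPM in cold mice and 125, 120 and 119 CPM in ctrl mice (chr17:46646229-46650139). This was the smallest called fall, 1.22-fold, with no overlap (log2 fold change -0.29 ± 0.10 SE, adjusted p = 0.0446). Mrpl50 did not pass without cold mouse 4 (adjusted p = 0.0511), ctrl mouse 2 (0.0797) or ctrl mouse 9 (0.0564), and Mrpl48 did not without cold mouse 11 (0.23), ctrl mouse 2 (0.163) or ctrl mouse 14 (0.0518). Mrpl2 passed without cold mouse 15 and in none of the other 5 fits that left out 1 mouse (adjusted p of 0.0723 to 0.201 without cold mouse 4, cold mouse 11, ctrl mouse 2, ctrl mouse 9 or ctrl mouse 14).

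Among the members that rose, the change was largest for Mrpl47, whose bacterial counterpart sits beside the exit of the nascent chain tunnel (chr3:32725397-32737605). It had 86, 81.7 and 92.6 CPM in cold mice and 67.1, 56.6 and 60.5 CPM in ctrl mice, or 86.7 ± 5.5 and 61.4 ± 5.3 CPM (SD, n = 3 each). All cold mice were above all ctrl mice, 1.41-fold (log2 fold change 0.50 ± 0.12 SE, adjusted p = 0.00206). Its call held in all 14 alternatives, with an adjusted p of at most 0.0346. Mrpl46, of the central protuberance, had 72, 70.1 and 83.3 CPM in cold mice and 50.3, 53.6 and 58.2 CPM in ctrl mice (chr7:78775236-78783531). It was 1.38-fold higher without overlap (log2 fold change 0.47 ± 0.12 SE, adjusted p = 0.00489). Mrpl46 passed without each mouse in turn, but not with the muscle covariate (adjusted p = 0.108), without both cold mouse 15 and ctrl mouse 2 (0.124), on flow cell 1 alone (0.0573) or under DESeq2 (0.0663). Of the 3 called members described here as proteins of the central protuberance, Mrpl46 rose while Mrpl40 and Mrpl48 fell. The proteins of the protuberance were not taken as a list, so these 3 do not stand for the whole of it. Mrps18a, one of 3 mammalian relatives of bacterial S18 and built into the large subunit, had 115, 107 and 110 CPM in cold mice and 85.6, 84.7 and 87 CPM in ctrl mice (chr17:46110986-46128910). The ctrl mice were nearly level, all cold mice were above them, 1.29-fold in the fit, and the call held without each mouse in turn, though not on flow cell 2 alone (adjusted p = 0.0788) or under DESeq2 (0.0911) (log2 fold change 0.37 ± 0.10 SE, adjusted p = 0.00964).

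The other 5 large subunit members that rose have bacterial counterparts. Mrpl19, of the face towards the small subunit, had 44.9, 49.6 and 43.1 CPM in cold mice and 35.3, 32.7 and 34.9 CPM in ctrl mice (chr6:81957851-81965958). The gain of 1.34-fold (log2 fold change 0.42 ± 0.14 SE, adjusted p = 0.0315) was uneven between flow cells, with a log2 fold change of 0.59 on flow cell 1 and 0.02 on flow cell 2 (adjusted p = 0.976 there). Mrpl35 had 95.7, 102 and 112 CPM in cold mice and 83.3, 66.3 and 83.8 CPM in ctrl mice (chr6:71812997-71826969). Ctrl mouse 9 was the lowest, and the groups were 1.32-fold apart (log2 fold change 0.40 ± 0.11 SE, adjusted p = 0.0111). Mrpl11, at the base of the stalk that binds translation factors, had 64.3, 73.6 and 62.9 CPM in cold mice and 57.3, 52.1 and 47.9 CPM in ctrl mice (chr19:4962147-4966999). Cold mice were 1.28-fold higher without overlap (log2 fold change 0.36 ± 0.12 SE, adjusted p = 0.0349). Mrpl27, whose counterpart reaches the peptidyl transferase centre, had 120, 105 and 110 CPM in cold mice and 96, 90.8 and 85.6 CPM in ctrl mice (chr11:94653767-94660089). This was 1.23-fold (log2 fold change 0.30 ± 0.11 SE, adjusted p = 0.0418). Its log2 fold change was 0.38 on flow cell 1 and 0.14 on flow cell 2 (adjusted p = 0.609 there). Mrpl20, the most abundant called member, whose counterpart joins early in bacterial assembly, had 395, 361 and 349 CPM in cold mice and 312, 290 and 297 CPM in ctrl mice (chr4:155802878-155809975). It was also 1.23-fold higher, with the smallest SE of the called members that rose (log2 fold change 0.30 ± 0.08 SE, adjusted p = 0.00761).

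Mrps18b, a mitochondria-specific relative of S18, was the only small subunit member called higher. It had 105, 83.7 and 99 CPM in cold mice and 75.2, 70.9 and 80 CPM in ctrl mice (chr17:35910379-35916389). Cold mouse 11 stood close to ctrl mouse 14, and the fit gave 1.27-fold (log2 fold change 0.35 ± 0.11 SE, adjusted p = 0.0302). Without cold mouse 4, the adjusted p was 0.0783 for Mrpl20, 0.179 for Mrpl27, 0.0617 for Mrpl11, 0.0623 for Mrpl19 and 0.161 for Mrps18b. Without ctrl mouse 9 it was 0.0973 for Mrpl35, 0.0917 for Mrpl27, 0.0844 for Mrpl11, 0.0982 for Mrpl19 and 0.109 for Mrps18b. Without cold mouse 11 it was 0.176 for Mrpl11 and 0.13 for Mrpl19, and without cold mouse 15 it was 0.0521 for Mrpl35, 0.0573 for Mrpl27 and 0.0724 for Mrps18b. Without ctrl mouse 2 it was 0.053 for Mrpl27, 0.0544 for Mrpl19 and 0.0744 for Mrps18b, and without ctrl mouse 14 it was 0.179 for Mrpl27, 0.169 for Mrpl11 and 0.0663 for Mrpl19.

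The 3 relatives of S18 can be set side by side. Mrps18a and Mrps18b were higher in cold mice as given above, and Mrps18c, which takes the place of S18 in the small subunit, had 73.9, 75.1 and 53 CPM in cold mice and 72.3, 82.7 and 64.2 CPM in ctrl mice. The groups of Mrps18c overlapped (log2 fold change -0.11 ± 0.13 SE, adjusted p = 0.637). The 3 genes differ in sequence enough that none shared 200 nt at 95% identity with another.

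**Figure D4:**
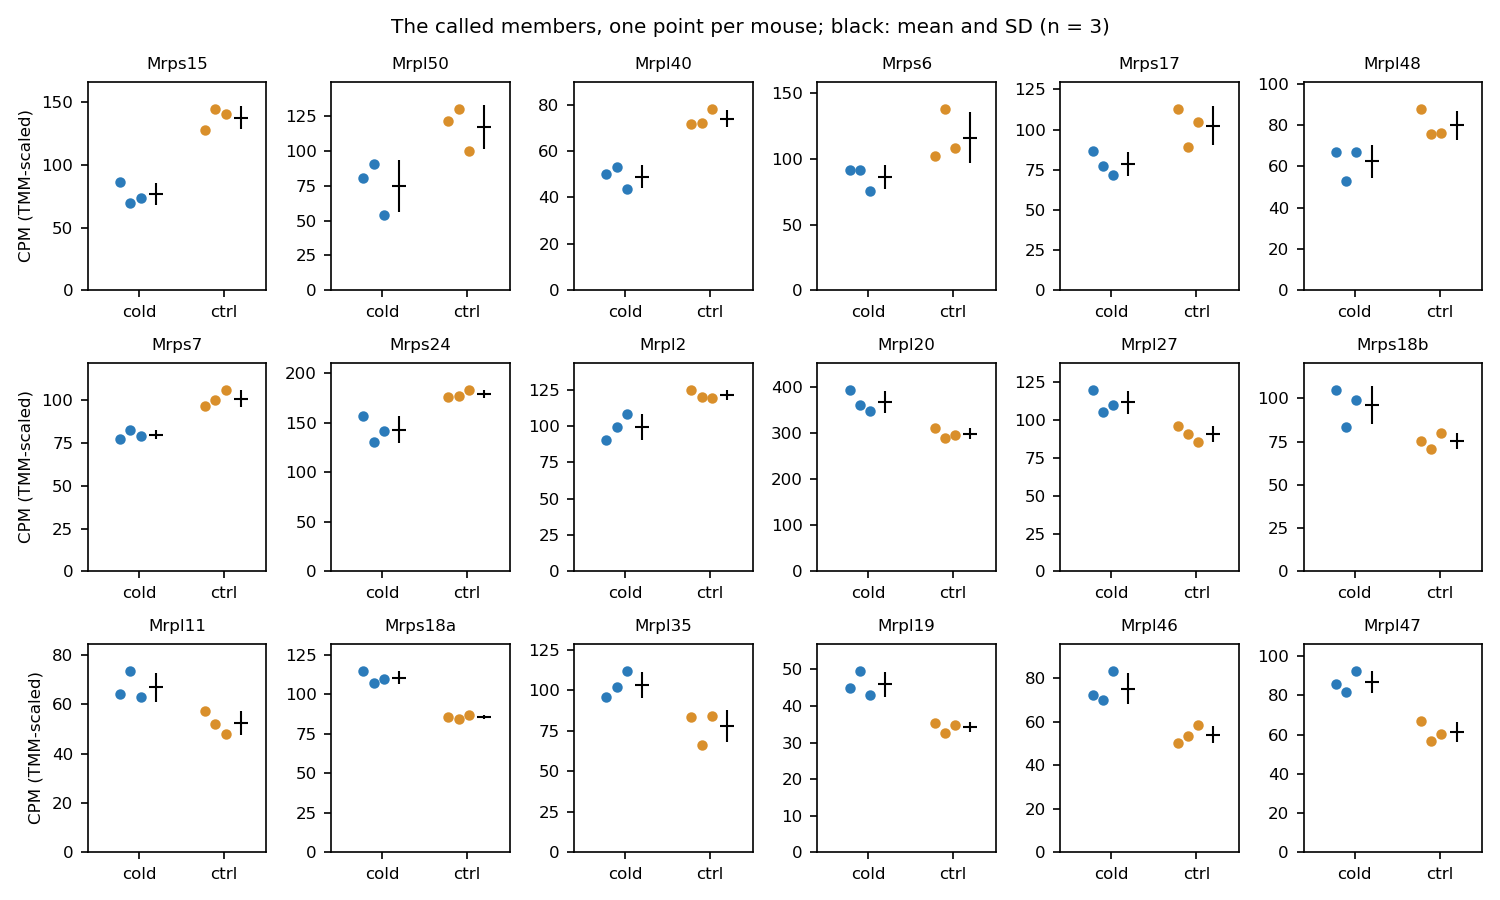
CPM of the 18 called members in each mouse, cold on the left and ctrl on the right of each panel, with the mean and SD over 3 mice in black. In no panel do the groups overlap, and the panels run from the largest fall (Mrps15) to the largest rise (Mrpl47).

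Few of these calls held under every alternative. Without each mouse in turn, 5 of the 18 called members passed in all 6 fits (Mrps15, Mrpl40, Mrps18a, Mrpl46 and Mrpl47), and the counts ran from 4 to 8 higher and from 4 to 8 lower. DESeq2 called 1 member higher (Mrpl47) and 3 lower (Mrps15, Mrpl40 and Mrpl50). On flow cell 2 alone edgeR called 3 higher (Mrpl47, Mrpl46 and Mrpl35). It called 5 lower there (Mrps15, Mrpl50, Mrpl40, Mrps6 and Mrpl30, the last not called in the main fit). With the skeletal muscle level as a covariate edgeR called 4 higher (Mrpl47, Mrps18a, Mrpl20 and Mrpl27) and 3 lower (Mrps15, Mrpl40 and Mrps7). Without cold mouse 15 and ctrl mouse 2, which held the most and the least muscle RNA, it called 4 higher (Mrpl47, Mrps18a, Mrpl20 and Mrpl11) and 3 lower (Mrps15, Mrpl40 and Mrps6). Mrps15, Mrpl40 and Mrpl47 passed in all 14 alternatives, and none of the 18 changed sign in any. The alternatives refit the same reads, or parts of them, by which the 18 were picked. A kept sign is therefore not separate support.

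The members just short of the threshold had changes as large as some that passed. Among members not called, the largest falls were those of Mrps9 (log2 fold change -0.37, adjusted p = 0.0657), Mrpl32, which a membrane protease trims before it joins the ribosome (-0.28, 0.0888), Mrpl9 (-0.28, 0.0684), Mrps31 (-0.28, 0.0996) and Mrpl52 (-0.26, 0.0776). Mrps9, for example, had 38.2, 30.6 and 36.1 CPM in cold mice and 42.8, 47 and 45.6 CPM in ctrl mice. In all 5 the cold mice lay below the ctrl mice without overlap, beside 26 of all 78 members (33.3%) and 17.8% of tested genes. The 5 were picked by the size of their fall in these same values, so the gap is not separate support. The largest positive values among members not called were those of Mrpl54 (0.32, 0.0644), Mrpl55 (0.23, 0.136), Mrpl45, which anchors the ribosome to the inner membrane (0.23, 0.18), Mrpl44, which carries a fold of the RNase III type (0.22, 0.272) and Mrpl1 (0.21, 0.379). Mrpl54 had 90.3, 82.7 and 113 CPM in cold mice and 68.3, 77.6 and 82.4 CPM in ctrl mice, with cold mouse 11 and ctrl mouse 14 almost level. Over all members, 33 (42.3%) had an unadjusted p under 0.05, beside 31.4% of all tested genes and 38.6% of those within the members' range of mean CPM.

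Mrpl12, the stalk protein that recruits translation factors, had 229, 224 and 233 CPM in cold mice and 259, 253 and 255 CPM in ctrl mice. Every cold mouse was lower by a small and even margin, which did not pass (log2 fold change -0.16 ± 0.08 SE, adjusted p = 0.194). Mrps36, the most abundant member, had 525, 553 and 538 CPM in cold mice and 639, 575 and 604 CPM in ctrl mice, again without overlap and without a call (-0.17 ± 0.07 SE, adjusted p = 0.0959). Mrps30 had 43.5, 41.1 and 39.6 CPM in cold mice and 37.6, 41.8 and 40 CPM in ctrl mice, and these overlapped (0.06 ± 0.14 SE, adjusted p = 0.836). Of the other abundant members, Mrpl42 had 429, 404 and 434 CPM in cold mice and 395, 424 and 431 CPM in ctrl mice (0.02 ± 0.08 SE, adjusted p = 0.905), and Mrps21 had 289, 281 and 261 CPM in cold mice and 283, 285 and 292 CPM in ctrl mice (-0.05 ± 0.08 SE, adjusted p = 0.748). Mrpl34 had 315, 358 and 313 CPM in cold mice and 389, 355 and 383 CPM in ctrl mice (-0.19 ± 0.08 SE, adjusted p = 0.0953). At the low end, Mrpl1 had 46.4, 47.6 and 32 CPM in cold mice and 35.3, 39.8 and 34.4 CPM in ctrl mice. These overlapped. Among members not called, the signs of Mrpl42, Mrps18c, Mrps21 and Mrps30 changed between alternatives.

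Long reads were counted per transcript, so the forms of each member could be compared. Reads fell on 295 member transcripts, of which 147 passed the filter, and 7 were higher and 7 lower in cold mice, beside 8.68% higher and 8.22% lower among 11699 tested transcripts (16.9% in all). In 38 members a single transcript held at least 90% of reads (median over members 89.4%), and in 5 no transcript reached 50%. Coding transcripts held 91.5% of member reads, nonsense-mediated decay forms 3.19% and retained intron forms 3.17%, with decay forms at 3.00 to 3.21% in cold mice and 3.05 to 3.62% in ctrl mice. All 7 higher transcripts and 6 of the 7 lower ones were the main transcript of a called member.

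The exception was Mrps17, whose reads were spread over 9 transcripts. Mrps17-202 had 3, 10 and 6 reads in cold mice and 16, 17 and 16 reads in ctrl mice, 2.54-fold lower in the fit (log2 fold change -1.35 ± 0.38 SE, adjusted p = 0.0106). The main form, Mrps17-203 with 40.6% of reads, had a log2 fold change of -0.37 and did not pass (adjusted p = 0.104). At such low counts the share of Mrps17-202 within its gene was not shown to differ: 0 of the 43 members with at least 2 tested transcripts was called for a change of transcript usage, and 0 had an unadjusted p under 0.05, by edgeR's diffSpliceDGE, and limma called 0 as well. Over all genes, 5 of 2568 (0.195%) were called for usage.

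In 10 of the 78 members, transcripts not annotated as coding held at least 25% of reads. Their share was highest in Mrps26 (60.9%), Mrpl28 (57.2%), Mrps34 (53.7%) and Mrps2 (48.3%), and Mrps14, Mrpl32, Mrpl3, Mrpl53, Mrps9 and Mrpl38 followed with 39.9 to 26.1%. In 9 of the 10 the groups overlapped. In Mrpl32 the share was 37.2, 36.4 and 32.7% in cold mice and 40.6, 39 and 38.6% in ctrl mice, lower in every cold mouse, and Mrpl32 was not called for transcript usage (unadjusted p = 0.783). Single forms are given for 3 members chosen after their values were seen. Mrps34-203, a decay form, held 57, 49.1 and 45.6% of Mrps34 reads in cold mice and 53.9, 50.9 and 52.2% in ctrl mice. Mrpl28-204, a retained intron form, held 45.1, 56.6 and 55.7% of Mrpl28 reads in cold mice and 47.3, 47 and 55.9% in ctrl mice. The decay form Mrpl42-205 held 21.9, 18.5 and 19.6% of Mrpl42 reads in cold mice and 21, 16.8 and 18.8% in ctrl mice. In all 3 the groups overlapped. Mrpl55, by contrast, divided its reads among 5 coding transcripts, with 25.8% on the leading one.

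Some members share sequence with other genes, and the labels and files do not say how such reads were assigned. Mrpl23, the member with fewest reads (178), shares 540 nt without a mismatch with its processed pseudogene Mrpl23-ps1, which was given 712 reads, so the level of Mrpl23 is uncertain. All 695 nt of a Mrpl53 transcript are shared with the gene model Gm42688, which held 820 reads beside 1110 of Mrpl53. Mrps18b overlaps the antisense gene Gm16279 over 638 nt, and Gm16279 rose as well, with 9.18, 9.52 and 12.2 CPM in cold mice and 4.05, 5.1 and 6.51 CPM in ctrl mice (log2 fold change 0.94 ± 0.31 SE, adjusted p = 0.0317). Without strand, reads of these 2 genes cannot be told apart, and the values of Mrps18b are uncertain to that extent. Mrpl47 overlaps Ndufb5 over 616 nt on the other strand, and Ndufb5, with 10588 reads, had a log2 fold change of -0.06 (adjusted p = 0.61). Actl6a, with 221 reads, overlaps Mrpl47 over 452 nt. Mrpl48 overlaps Rab6a over 708 nt (log2 fold change of Rab6a -0.22, adjusted p = 0.272). Mrpl46 and Mrps11 lie head to head and overlap over 173 nt, yet their values were apart: 0.47 for Mrpl46 and 0.08 ± 0.14 SE for Mrps11 (adjusted p = 0.754).

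The proteins and factors that work with the members were read from lists of known genes. Of 5 mitochondrial ribosomal proteins under other symbols (Dap3, Ptcd3, Chchd1, Aurkaip1 and Gadd45gip1), 0 were higher and 1 was lower, and all were tested. The share called was 20%, beside 20.0% of all tested genes. Chchd1, of the small subunit, had 110, 94.7 and 101 CPM in cold mice and 120, 127 and 126 CPM in ctrl mice (log2 fold change -0.29 ± 0.10 SE, adjusted p = 0.0437). It passed in 3 of 14 alternatives (adjusted p up to 0.23), and was lost without cold mouse 11, cold mouse 15, ctrl mouse 2, ctrl mouse 9 or ctrl mouse 14. Of 31 genes of ribosome assembly and rRNA modification, 29 were tested, and 2 were higher and 2 lower. These calls made up 13.8% of the 29, beside 20.0% of all tested genes. Rbfa, which matures the small subunit rRNA, had 29.5, 29.6 and 28.5 CPM in cold mice and 50.9, 42.9 and 50.7 CPM in ctrl mice. All cold mice were far below (log2 fold change -0.72 ± 0.14 SE, adjusted p = 0.000439). Grsf1, an RNA-binding protein of mitochondrial RNA granules, had 153, 132 and 137 CPM in cold mice and 118, 98 and 86.1 CPM in ctrl mice (log2 fold change 0.49 ± 0.11 SE, adjusted p = 0.00167).

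Mterf4, which works with a methyltransferase on the large subunit, had 20.8, 18 and 18.6 CPM in cold mice and 12.2, 12.2 and 12.1 CPM in ctrl mice. It passed narrowly (log2 fold change 0.65 ± 0.22 SE, adjusted p = 0.0316), and no longer without cold mouse 4 or any one of ctrl mice 2, 9 and 14 (adjusted p up to 0.214 over the alternatives). The GTPase Mtg1, which acts on the large subunit, had 29.5, 30.1 and 28.5 CPM in cold mice and 34.7, 41.8 and 47.5 CPM in ctrl mice. Its fall (log2 fold change -0.50 ± 0.15 SE, adjusted p = 0.0185) did not pass without cold mouse 4 or ctrl mouse 14 (adjusted p up to 0.266 over the alternatives). Rbfa and Grsf1 passed in all 14 alternatives.

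Of 13 tested translation factors, 1 was higher and 0 were lower. That is 7.69% called, beside 20.0% of all tested genes. Gfm1, the elongation factor that moves the ribosome along the mRNA, had 158, 175 and 191 CPM in cold mice and 101, 105 and 101 CPM in ctrl mice. It was 1.70-fold higher without overlap (log2 fold change 0.77 ± 0.10 SE, adjusted p = 9.12e-07), a larger rise than that of any member, and passed in all 14 alternatives. The mitochondrial rRNAs lack a long poly(A) tail, so poly(A) RNA captures them only in part. Reads of mt-Rnr2, the large subunit rRNA, came to 34815, 26236 and 33859 CPM in cold mice and 17186, 10074 and 10152 CPM in ctrl mice (log2 fold change 1.34 ± 0.29 SE, adjusted p = 0.044). Those of mt-Rnr1, the small subunit rRNA, came to 10638, 8959 and 10106 CPM in cold mice and 6330, 3395 and 3242 CPM in ctrl mice, and did not pass (1.20 ± 0.32 SE, adjusted p = 0.0795). It passed in 3 of 13 alternatives, under DESeq2, without both cold mouse 15 and ctrl mouse 2, and without ctrl mouse 2 (adjusted p = 1.93e-12), and its adjusted p was up to 0.213 in the others. In both rRNAs ctrl mouse 2 was the highest of its group. The call of mt-Rnr2 held in 5 of 13 alternatives, and among the fits that left out 1 mouse it held only without ctrl mouse 2 (adjusted p up to 0.138 over the alternatives, which lost it without each of cold mice 4, 11 and 15 and ctrl mice 9 and 14).

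Markers of other cells in the tissue were read beside these values. Of endothelial markers 1 of 7 tested was higher (Kdr) and 0 were lower, of macrophage markers 0 of 5 were called, of fibroblast and preadipocyte markers 0 of 6 were higher and 3 lower, of white adipocyte markers 2 of 4 were higher and 0 lower, and of erythroid markers 0 of 5 were called. Of the 10 brown adipocyte markers 4 were higher and 2 lower. Among all tested genes 10% were called in each direction. The part of these cells in the members' values is addressed next. That part, and that of the skeletal muscle RNA beyond the covariate fit above, was not tested.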

How the data were processed

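The authors deposited, for each of 6 libraries and 2 flow cells, whole-number counts of reads per transcript, with no normalization. The submitters' processing notes name minimap2 and GRCm38. For its version, the annotation release, the use of strand and the handling of reads that match several transcripts, the answer is not given in the sources used here. The extraction text in the labels names another fat depot at one step, while the tissue fields name interscapular brown fat, which was followed.

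Transcripts were matched to GENCODE M21 (59371 of 59543; the 172 others held 9857 reads, 0.084%, and were left out). Counts were summed over flow cells and over genes, and n counts mice. Replicates are separate mice by their numbers in the labels; read counts within a group differed by 2.09 to 3.42 times the sampling variance, so no library was a copy of another. Tests used edgeR 4.0.16 in R 4.3.3 (filterByExpr, TMM, robust glmQLFit, glmQLFTest, all 6 libraries, no covariate), with Benjamini-Hochberg adjustment over all 8684 genes or 11699 transcripts at 0.05; adjusted p-values come from it where no other tool is mentioned. SE is the log2 fold change divided by the root of its F statistic. Usage was tested with diffSpliceDGE. DESeq2 1.42.0 and limma 3.58.1 served as alternatives, and minimap2 2.31 compared transcript sequences (at least 200 nt at 95% identity; other genes with at least 20 reads). The script was tested on simulated counts. CPM per kb divides mean CPM by the read-weighted transcript length. Tables were prepared in Python 3.11.15.

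The members, lists and motifs were chosen with earlier results of these data known. Members were named in full if called; the 5 largest changes each way among the rest, the 3 highest and 3 lowest levels per kb, and Mrpl12, Mrps36, Mrps30 and Mrps18a, b and c were also named. The alternatives were another normalization, DESeq2, no filter, each flow cell alone, mitochondrially encoded genes left out, the mean log2 CPM of the muscle markers as a covariate, and each mouse left out. The fit without cold mouse 15 and ctrl mouse 2 was added after the data were seen. One listed translation factor, Mtres1, matched no annotated gene.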

Additional observations from a re-analysis of the deposited data

How the results depend on the processing

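No paired analysis was possible because no mouse number occurs in both groups. The counts of called genes and members depended on the fit. DESeq2 called 492 genes higher and 439 lower in cold mice in place of 869 and 870, with 1 member higher and 3 lower in place of 9 and 9. Flow cell 2 alone gave 457 genes higher and 432 lower, 3 members higher and 5 lower, and 3 member transcripts higher in place of 7. Flow cell 1 alone gave 5 members higher and 3 member transcripts higher. With the muscle covariate 548 genes were lower, and 4 members were higher and 3 lower; without cold mouse 15 and ctrl mouse 2, 559 genes were lower, and 4 members were higher and 3 lower. Leaving out 1 mouse gave 4 to 8 members higher and 4 to 8 lower, and 3 to 7 member transcripts higher and 5 to 8 lower. The fits on 1 flow cell have fewer reads and those without a mouse fewer animals; otherwise the cause was not tested. Another scaling, no filter and the omission of mitochondrially encoded genes moved neither count over all members by more than 1.5 times, although without the filter the large subunit had 5 members higher and 2 lower. For single members, 922 of 1092 refits kept sign and call, 100 lost a call, 7 gained one (5 members), and 63 refits of 23 members that were not called changed sign. Of those named, the log2 fold change of Mrps18c was 0.04 with the muscle covariate, 0.03 without cold mouse 15 and ctrl mouse 2 and -0.20 to 0.03 without 1 mouse (positive without cold mouse 15). That of Mrpl42 was -0.08 on flow cell 1 alone, -0.02 with the muscle covariate, -0.04 without cold mouse 15 and ctrl mouse 2 and -0.02 to 0.05 without 1 mouse (negative without ctrl mouse 2). That of Mrps21 was 0.02 on flow cell 1 alone and that of Mrps30 was -0.01 on flow cell 2 alone. The median SE of a member's log2 fold change was 0.11, and how far read depth limited the calls was not tested.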
